A study of Mus musculus with 8 samples.

Results

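The imprinted growth genes H19, Igf2, Igf2r, Dlk1, Meg3, Grb10, Mest, Peg3, Plagl1 and Ndn were followed in fetal liver hematopoietic stem cells (HSCs) with and without IκBα. They are 10 of the 55487 genes of the deposited count table, chosen by name, and each was found by its gene identifier. All 10 passed the filter of at least 10 reads summed over the libraries, which 20610 genes passed. Bulk RNA-seq was made from 500 long-term HSCs per sample (LSK CD48-CD150+ by the sort), taken from livers of mouse embryos at E14.5. The groups were 3 IκBα WT, 3 HET and 2 KO samples of a targeted Nfkbia knockout line, which lacks the inhibitor of NF-κB that this gene encodes. The line was bred by mating heterozygous mice, some of which also carried the Gfi1:tomato reporter. The methods describe RNA taken from several mice of each genotype, while the labels do not tie each sample to an embryo of its own, so the p-values measure the spread between these samples only.

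An imprinted gene is read from the copy of one parent only. In the mouse, Igf2, Dlk1, Mest, Peg3, Plagl1 and Ndn are read mainly from the paternal copy, and H19, Igf2r and Meg3 from the maternal copy, while Grb10 is maternal in most tissues. Paternally read genes of this kind tend to promote fetal growth and maternally read ones to restrain it, and several of them form a co-expressed network that declines after birth. In HSCs the H19-Igf2 domain and the Dlk1-Meg3 domain are known for their part in keeping stem cells quiescent.

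Several members lie close together. H19 (chr7:142575529-142578143, minus strand) and Igf2 (chr7:142650766-142666816, minus strand) are 72.6 kb apart on GRCm38, and Dlk1 (chr12:109452823-109463336, plus strand) and Meg3 (chr12:109541001-109571726, plus strand) are 77.7 kb apart. Ndn (chr7:62346569-62350262) and Peg3 (chr7:6703892-6730431) share chromosome 7 with H19 and Igf2 but lie far from them. Igf2r is on chromosome 17, Grb10 on 11, Mest on 6 and Plagl1 on 10. Airn is antisense to Igf2r, Igf2os to Igf2 and Copg2 to the end of Mest, so reads in the shared parts cannot be told apart where strand was not counted. Gm49394 (chr7:142650769-142669942), annotated as protein-coding on the same strand, spans nearly all of Igf2 and held 0 reads in every library. How reads in the parts shared by both were counted was not tested, so the level of Igf2 may be understated.

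H19 carries a microRNA in its exon, miR-675, and its mature forms are shown because H19 RNA is the precursor from which they are cut. The capitals mark the seed, bases 2 to 8, and the sequences are from RefSeq on GRCm38.p6.
mmu-miR-675-5p: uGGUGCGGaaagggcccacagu
mmu-miR-675-3p: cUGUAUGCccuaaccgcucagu
The 2 forms do not share a seed. The precursor's own gene entry held 0 reads in all 8 libraries, as did those of Mir483 in Igf2, Mir335 in Mest and Mir770 in Meg3, so only the host transcripts can be described.

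The promoters of Ndn and Plagl1 are shown because these genes had the largest KO log2 fold changes of the members. They run from 250 bases before to 50 after the transcript start in RefSeq, on the plus strand, which lies inside the wider gene span of the annotation used for the counts, and the capitals mark CpG, the dinucleotide on which imprinting marks are set.
Ndn, chr7:62348027-62348326: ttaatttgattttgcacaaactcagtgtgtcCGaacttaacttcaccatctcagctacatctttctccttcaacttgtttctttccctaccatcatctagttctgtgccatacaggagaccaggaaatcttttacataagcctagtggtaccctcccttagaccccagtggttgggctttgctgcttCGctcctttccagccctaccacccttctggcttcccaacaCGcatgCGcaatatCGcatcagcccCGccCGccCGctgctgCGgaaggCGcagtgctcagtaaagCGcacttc
Plagl1, chr10:13090582-13090881: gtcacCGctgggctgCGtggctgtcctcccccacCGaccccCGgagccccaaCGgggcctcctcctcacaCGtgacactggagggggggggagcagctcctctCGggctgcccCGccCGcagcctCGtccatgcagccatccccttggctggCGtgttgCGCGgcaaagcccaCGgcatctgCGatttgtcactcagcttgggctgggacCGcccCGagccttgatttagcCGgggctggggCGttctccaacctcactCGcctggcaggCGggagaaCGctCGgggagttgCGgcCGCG
The Ndn window held 11 CpG and the Plagl1 window 26, against a median of 7 over the 32851 promoters of 300 bases in the table. The Igf2r window held 34 and the CpG-rich Grb10 window 45, and GC content was 51.0% for Ndn and 70.7% for Plagl1 against a median of 52.7%. The NF-κB consensus was found on either strand in 0 of the 16 member promoters, which cover 9 members, and in 4.51% of all promoters. The YY1 core GCCATNTT and the GATA core AGATAA were also in 0 of the 16 and in 6.05% and 11.2% of all.

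The libraries held 17895973 to 21720972 reads on genes, and 3 reads, the least that the depth can show, came to 0.125 to 0.178 CPM (reads scaled to the library size by TMM). Nfkbia read 45.3, 67.7 and 23.4 CPM in WT, 23.4, 29.0 and 14.4 CPM in HET, and 1 and 0 reads in the KO libraries. Sex fitted its labels, with Y-linked Eif2s3y at 116.5, 131.5 and 162.3 CPM in the libraries labelled male (WT1, WT2 and HET1) and at 0 in the 5 others. The male libraries are labelled total RNA and the female ones polyA RNA, and both KO libraries are female, so sex and RNA type cannot be told apart.

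Libraries of one genotype differed widely in HSC markers. The mean log2 CPM of 14 markers of the HSC gate and identity was 7.25, 7.38 and 3.92 in WT1, WT2 and WT3, 5.86, 5.51 and 1.97 in HET1, HET2 and HET3, and 7.09 and 6.45 in KO1 and KO2. In the library labelled HET3, Ly6a, which encodes the Sca-1 of the sort, held 0 reads and Procr 1.13 CPM. Kit was 135.0 to 231.4 CPM in all 8. WT3 and HET3 stood apart, and the values of the members and of the gene lists are also given without them.

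Markers of other liver cells moved with this difference. Summed CPM of 14 fetal hepatocyte markers was 1630 in WT3 and 839.4 in HET3, and 56.6 to 333.6 in the 6 others. Alb and Afp, secreted proteins of hepatocytes, reached 379.7 and 553.2 CPM in WT3. The erythroid regulator Klf1 was at 1040 CPM in WT3, 1227 in HET3, 940.6 in HET2, 731.0 in HET1 and 518.3 in KO2, but at 36.2 to 113.6 in KO1, WT1 and WT2. Among 16 markers of fetal liver stroma, 9 to 11 held at most 3 reads in each library. Hand2 and Ngfr held 0 reads in every library, Col3a1 at most 2 and Col1a1 at most 6. Col1a2, another collagen, reached 157 reads at 1.30 to 7.35 CPM. Postn, a matrix protein of stromal cells, reached 992 reads, at 36.8, 15.2 and 2.92 CPM in WT, 29.9, 17.5 and 0.356 CPM in HET, and 40.5 and 48.8 CPM in KO. The summed level of the stroma markers, 104.8 to 394.9 CPM, was mostly Vim, which HSCs also express. Endothelial markers, 11 in number, summed to 21.7 to 415.1 CPM. Igf2, H19 and Dlk1 are also made by stromal and hepatic cells of the fetal liver. Igf2 and H19 were lowest in WT3 and HET3, where hepatocyte markers were highest, and Dlk1 was lowest in HET3 and HET2. In bulk RNA a smaller number of cells of a type and less RNA per cell cannot be told apart, and the part of these cells in the results below was not tested.

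Per kb of exon, which allows a comparison between genes, H19 and Dlk1 led with 33.4 ± 19.7 and 22.7 ± 19.6 CPM per kb (SD, n = 8), followed by Ndn at 18.5 ± 14.03 and Grb10 at 11.7 ± 2.85. These 4 overlapped within their SD. Igf2r was next at 1.32 ± 0.356 CPM per kb and overlapped Igf2 by its SD. Igf2 (0.661 ± 0.518), Peg3 (0.627 ± 0.212), Meg3 (0.490 ± 0.361), Plagl1 (0.457 ± 0.389) and Mest (0.300 ± 0.193) were low and not separable by their SD. The overlap of Igf2 with Gm49394 was not corrected for. Together the 10 genes took 0.0173% to 0.0927% of the reads of a library.

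**Figure D1:**
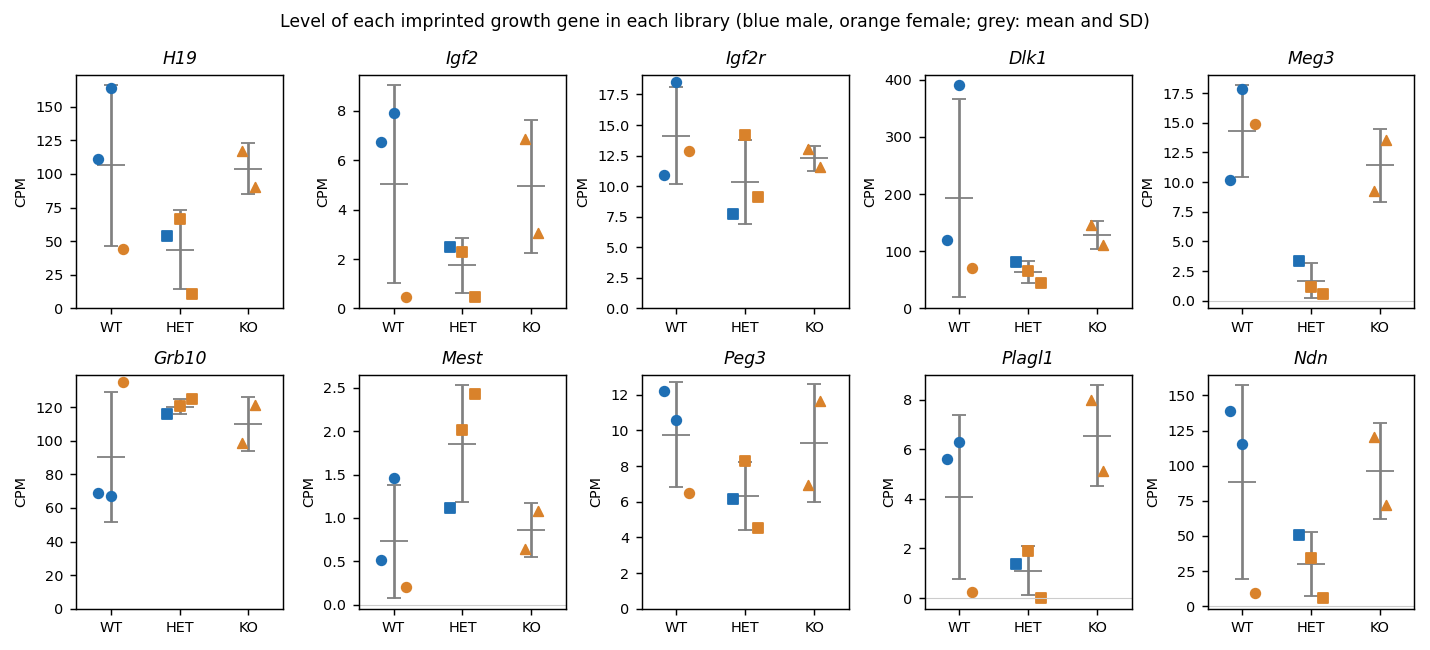
Level of each of the 10 genes in CPM by genotype, one point per library (blue male, orange female), with mean and SD in grey and n of 3, 3 and 2. Dlk1 is at 390.4 CPM in WT2 and between 44.0 and 145.4 in the others, and Grb10 is lowest in WT1 and WT2.

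H19 and Igf2 were both highest in WT2, KO1 and WT1 and lowest in WT3 and HET3. H19, a non-coding RNA that hosts miR-675, was at 111.1, 163.5 and 44.2 CPM in WT, 53.6, 66.8 and 10.5 CPM in HET, and 117.1 and 90.3 CPM in KO. Igf2, the fetal insulin-like growth factor, was at 6.74, 7.90 and 0.469 CPM in WT, 2.499, 2.27 and 0.475 CPM in HET, and 6.85 and 3.05 CPM in KO. Its values in WT3 and HET3 stood for 9 and 8 reads. Igf2r, the receptor that takes up IGF2 for degradation, was at 10.9, 18.6 and 12.9 CPM in WT, 7.71, 14.2 and 9.13 CPM in HET, and 13.02 and 11.6 CPM in KO, and its range over the libraries was 2.41-fold against 16.9-fold for Igf2. Both KO values of H19 and Igf2 lay above the 3 female WT and HET libraries, while those of Igf2r lay among them.

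Dlk1 and Meg3 are the protein-coding and the non-coding member of their domain. Dlk1, a membrane protein related to Notch ligands, was at 119.0, 390.4 and 70.4 CPM in WT, 81.8, 64.7 and 44.0 CPM in HET, and 145.4 and 110.7 CPM in KO. Meg3, a long non-coding RNA, was at 10.2, 17.8 and 14.9 CPM in WT, 3.35, 1.16 and 0.593 CPM in HET, and 9.25 and 13.6 CPM in KO, with 10 reads in HET3. All 3 HET libraries lay below all 3 WT libraries for Meg3, also WT3, and of the KO libraries 1 lay within the WT range and 1 just below it.

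Plagl1 and Ndn were low in WT3 and HET3. Plagl1, a zinc finger factor of the imprinted network, was at 5.62, 6.31 and 0.260 CPM in WT, 1.38, 1.92 and 0 CPM in HET, and 7.98 and 5.11 CPM in KO. The 0 reads in HET3 allow up to 0.178 CPM. Ndn, which encodes the growth suppressor necdin, was at 139.1, 115.6 and 9.69 CPM in WT, 50.6, 34.0 and 5.69 CPM in HET, and 120.3 and 71.8 CPM in KO. KO1 was thus close to WT1 and WT2, KO2 lay between HET1 and WT2, and both were far above WT3 and HET3. Peg3, a zinc finger protein, ranged from 4.51 to 12.2 CPM and its groups overlapped.

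Grb10 ran the other way. This gene, an adaptor that dampens insulin and IGF receptor signaling, was at 68.8, 67.2 and 135.1 CPM in WT, 115.8, 120.7 and 124.6 CPM in HET, and 98.7 and 121.5 CPM in KO. Mest, a hydrolase, reached 2.43 CPM at most and rested on 4 to 41 reads per library.

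In the comparison of KO with WT and HET pooled, which asks what loss of IκBα does, no member was called. Since both KO libraries are female and sex is in the model, these values rest on 3 female references, WT3, HET2 and HET3, of which WT3 and HET3 are the libraries that stood apart. With sex in the edgeR quasi-likelihood model, a gene was called where its adjusted p (Benjamini-Hochberg) was below 0.05 with a log2 fold change beyond 1 in either direction, and 0 of 10 members and 0 of 20610 genes (0.0%) passed. DESeq2 with apeglm called 1463 genes and 1 member, Ndn, against 8.73% of genes with an adjusted p called higher. At an unadjusted p under 0.05, edgeR had 5196 genes, and 3 members were higher in KO against 15.7% of all genes, and 0 lower against 9.48%. The median log2 fold change of the members was 1.07 and that of all genes 0.13, and 8 of 10 were above 0.

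Ndn, Igf2 and Plagl1 were the 3. Ndn had a log2 fold change of 2.54 (SE 0.709, 95% interval 0.92 to 4.17, unadjusted p = 0.00657, adjusted p = 0.148 by edgeR), Igf2 one of 2.20 (SE 0.832, unadjusted p = 0.0285, adjusted p = 0.166), and Plagl1 one of 3.15 (SE 1.28, unadjusted p = 0.0379, adjusted p = 0.180). H19 stood at 1.36 and Dlk1 at 1.10, with adjusted p of 0.235 and 0.256 in the same edgeR test. The intervals of Meg3 (-1.68 to 3.76), Mest (-3.11 to 1.42) and Plagl1 (0.22 to 6.07) were wide. Igf2r had a log2 fold change of 0.03 with an interval of -0.89 to 0.94, and Grb10 of -0.20 with -0.78 to 0.37. Over single libraries left out, Ndn ranged from 2.12 without HET3 to 3.65 without HET2, Igf2 from 1.498 without KO1 to 3.38 without HET2, Plagl1 from 2.56 without HET3 to 5.54 without HET2, and H19 from 0.89 without HET3 to 1.93 without HET2. Meg3 ranged from 0.51 without HET3 to 3.67 without WT3. Leaving out WT1, WT2 or HET1, which are male, hardly moves KO values in a model with sex, and Ndn then stood at 2.54, 2.54 and 2.53.

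These sizes differed with the reference libraries used. In the female libraries, both KO lay above the 3 WT and HET for H19, Igf2, Dlk1, Plagl1 and Ndn, 5 of 10 members, against 27.1% of all genes. Over all 6 WT and HET libraries, both KO lay above for 0 of 10 members (3.05% of genes) and below for 0 of 10 (1.79%). The exact two-sided permutation test of log2 CPM gave p from 0.214 for Plagl1 to 0.929 for Grb10, and 2 against 6 samples cannot go below 0.0714.

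The HSC markers themselves had a median log2 fold change of 2.65 in KO, with 12 of 14 at an unadjusted p under 0.05, and the hepatocyte markers one of -2.499. The endothelial markers had a median of 1.87, with 5 of 11 higher at that p, and the erythroid markers one of -1.27 with 0 of 11. Without WT3 and HET3, the log2 fold change of Ndn was 1.47, of Igf2 1.09, of Plagl1 1.74, of H19 0.61 and of Meg3 3.26. In this fit 1 member, Meg3, had an unadjusted p under 0.05 (edgeR, adjusted p above the threshold). Over all genes, 838 of 20610 were higher and 210 lower at that p. HET2 is then the only female reference, at 1.16 CPM for Meg3, against 9.25 and 13.6 CPM in KO and 10.2 and 17.8 CPM in the male libraries WT1 and WT2. Without WT3 and HET3 and without the sex term, which sets the KO libraries beside WT1, WT2, HET1 and HET2, Ndn stood at 0.18, Igf2 at 0.03, Plagl1 at 0.78, H19 at 0.07 and Meg3 at 0.49, with 0 of 10 members at an unadjusted p under 0.05. In the female samples alone, which is nearly the same contrast as with sex in the model, Ndn stood at 2.49. Without the sex term, Ndn stood at 0.70, Igf2 at 0.54 and Dlk1 at 0.00. With the HSC marker level as a covariate, Ndn stood at 0.61, Igf2 at 0.23, Plagl1 at -0.25 and H19 at -0.69, and 4 of 10 members were above 0. The part of the marker levels in the KO values was not tested beyond these fits.

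**Figure D2:**
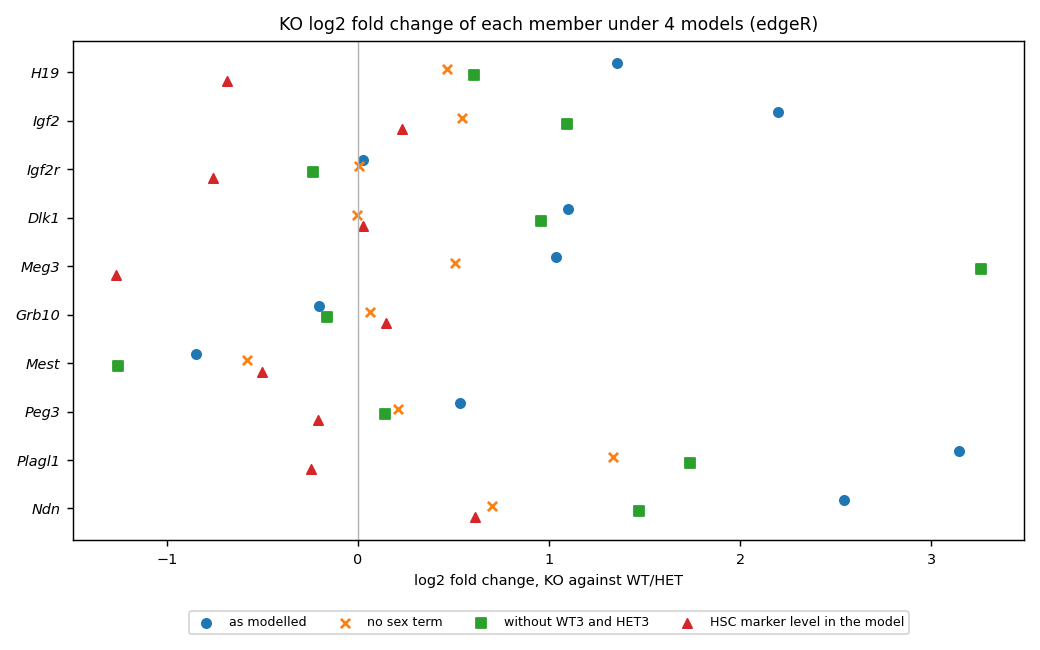
Log2 fold change of each member in KO against WT and HET under 4 edgeR models: sex in the model, no sex term, without WT3 and HET3, and with the HSC marker level added. Ndn stands at 2.54, 0.70, 1.47 and 0.61 in this order.

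In the comparison of HET with WT, which asks about the loss of a single copy, Meg3 had the largest value. Its log2 fold change was -3.05 (SE 0.5998, 95% interval -4.49 to -1.60, unadjusted p = 0.00185, adjusted p = 0.932 by edgeR), and all 3 HET lay below all 3 WT, which 4.85% of genes did, and 4.2% had the 3 HET above. No other member had groups that did not overlap. None of the 10 and 0 of 20610 genes were called (0.0%), 747 genes had an unadjusted p under 0.05, and Meg3 was the only member, against 1.82% of genes lower. The DESeq2 Wald test called Meg3 (log2 fold change -3.07, adjusted p = 0.00232), against 0.17% of genes called lower. Its exact permutation p was 0.1, the smallest that 3 against 3 can give. Leaving out single libraries moved the value between -4.07 and -2.06.

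Further members were lower in HET in some of the other fits. Deviations from the group means correlated most between WT3 and HET3 (0.718), while WT2 correlated more with HET1 (0.594) than with HET2 (0.376). Whether the replicate numbers are pairs is thus not settled. The replicate number as a block leaves 1 residual degree of freedom per gene. In that fit 4 members had an unadjusted p under 0.05 and 0 were called, against 4.39% of genes lower at that p. They were Meg3 (-2.99), H19 (-1.55), Ndn (-1.13) and Dlk1 (-0.61), with adjusted p of 0.757, 0.469, 0.586 and 0.877 by edgeR. Without WT3 and HET3, which in effect sets HET1 against WT1 and WT2, edgeR called Plagl1 (-2.10), Meg3 (-2.06), Dlk1 (-1.64), H19 (-1.36) and Ndn (-1.33), against 6.27% of genes called lower. In the fit with all WT and HET libraries, erythroid markers moved with genotype. There 9 of 11 were higher in HET at an unadjusted p under 0.05 in edgeR, against 371 of all 20610 genes. Their median log2 fold change was 2.00, and 0 of 11 were called. Among the libraries used without WT3 and HET3, HET1 had a lower HSC marker level, 5.86, than WT1 and WT2, at 7.25 and 7.38. The part of either marker group in the HET values was not tested beyond the fit with the HSC marker level given at the end.

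Dlk1, in the domain of Meg3, had a log2 fold change of -1.01 in HET (SE 0.558, 95% interval -2.35 to 0.34, adjusted p = 0.932 in edgeR), and the difference between the 2 genes was not tested. Rian, a non-coding RNA downstream of Meg3, was at 3.28, 8.48 and 1.35 CPM in WT, 1.70, 0.404 and 0.653 CPM in HET, and 2.15 and 2.16 CPM in KO. Its log2 fold change in HET was -1.58 (unadjusted p = 0.0448, adjusted p = 0.932 by edgeR).

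**Figure D3:**
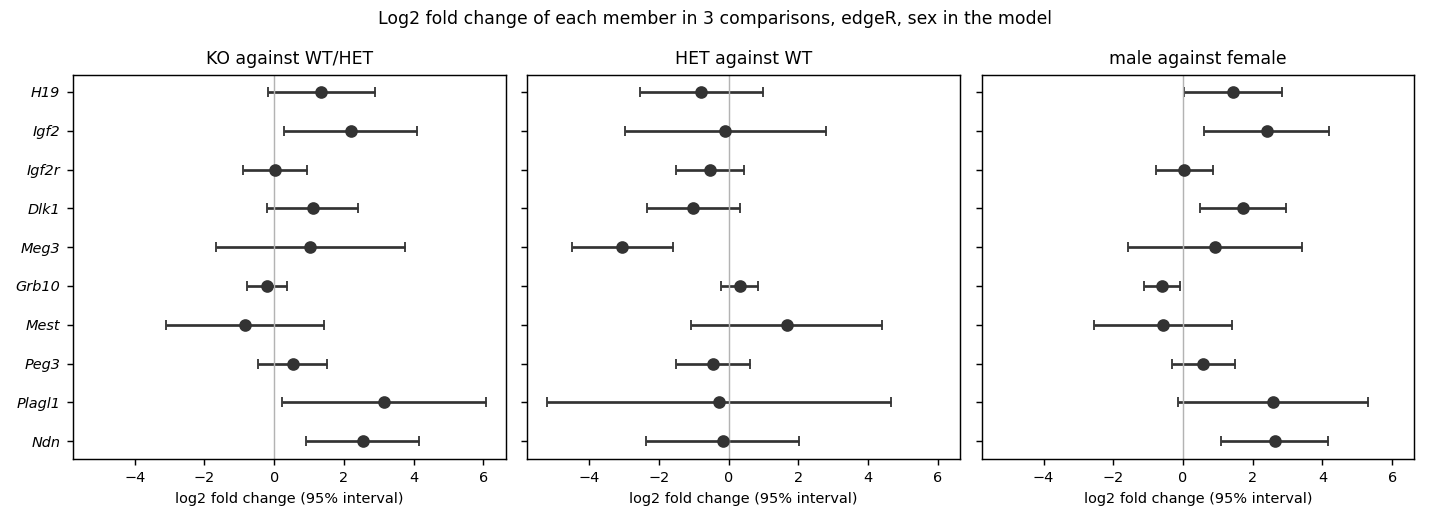
Log2 fold change with 95% interval of each member in KO against WT and HET, HET against WT and male against female (edgeR, sex in the model). In HET against WT the interval of Meg3, -4.49 to -1.60, is the one that lies away from 0.

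Male and female libraries, which differ in RNA label too, were compared because the KO values are adjusted for them. At an unadjusted p under 0.05, H19, Igf2, Dlk1 and Ndn were higher in male (18.9% of genes) and Grb10 lower (13.6%), and no member was among the 4 genes called (0.0194%). Ndn had a log2 fold change of 2.63 (SE 0.671, adjusted p = 0.0895 in edgeR). Among WT and HET alone, the 3 male libraries lay above the 3 female for Igf2, Dlk1 and Ndn (21.1% of genes) and below for Grb10 (17.5%), with exact permutation p = 0.1 each, the smallest possible. When WT3 and HET3 were left out, Ndn stood at 1.55, Igf2 at 1.30, Dlk1 at 1.58 and Grb10 at -0.56, with 0 members called. The male libraries include WT1 and WT2, the 2 with the highest HSC marker level.

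Across the 8 libraries the members followed the HSC marker level to different degrees. Of 30 relations with HSC, hepatocyte and erythroid marker levels, Pearson's r with HSC markers was 0.98 for Ndn (Spearman's rho 0.93, exact permutation p = 0.000099 for r and 0.00223 for rho, adjusted over the 30 0.00149 and 0.0134) and 0.98 for Plagl1 (rho 0.90, exact permutation p = 0.000496 and 0.00456, adjusted 0.00372 and 0.0196). H19 had r = 0.97 and Igf2 0.95 (rho 0.95 for both, adjusted p = 0.00149 for r, exact permutation). Without WT3 and HET3, r was 0.98 for Ndn, 0.89 for Plagl1, 0.92 for H19 and 0.97 for Igf2. Dlk1 had r = 0.79 (rho 0.95, adjusted exact permutation p = 0.0579 for r and 0.00856 for rho) and Meg3 0.65 (adjusted exact permutation p = 0.142). Leaving out WT3 and HET3 gave r = 0.81 for Dlk1 and 0.88 for Meg3. For Peg3, r was 0.79 (adjusted exact permutation p = 0.048) and 0.48 without WT3 and HET3, so this relation rested on those libraries. Igf2r (r = 0.41, adjusted exact permutation p = 0.389) and Mest (r = -0.19, 0.664) had no such relation at this number of samples. The share of all genes with an r of this size was not computed, so these values do not set the members apart from other genes. The permutation treats the 8 libraries as alike, although they differ in genotype, sex and RNA label.

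Grb10 ran against it, with r = -0.69 (rho -0.90, adjusted exact permutation p = 0.113 for r and 0.0196 for rho) for HSC markers and 0.87 (adjusted 0.0067 by exact permutation) for hepatocyte markers. Leaving out WT3 and HET3 gave Grb10 an r of -0.84 with HSC markers. Igf2 had r = -0.94 with hepatocyte markers. No relation was computed within the 3 male or the 5 female libraries, since both are fewer than 6. In the 5 female libraries, Ndn, Plagl1 and H19 increased in the order of the HSC marker level, HET3, WT3, HET2, KO2 and KO1.

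**Figure D4:**
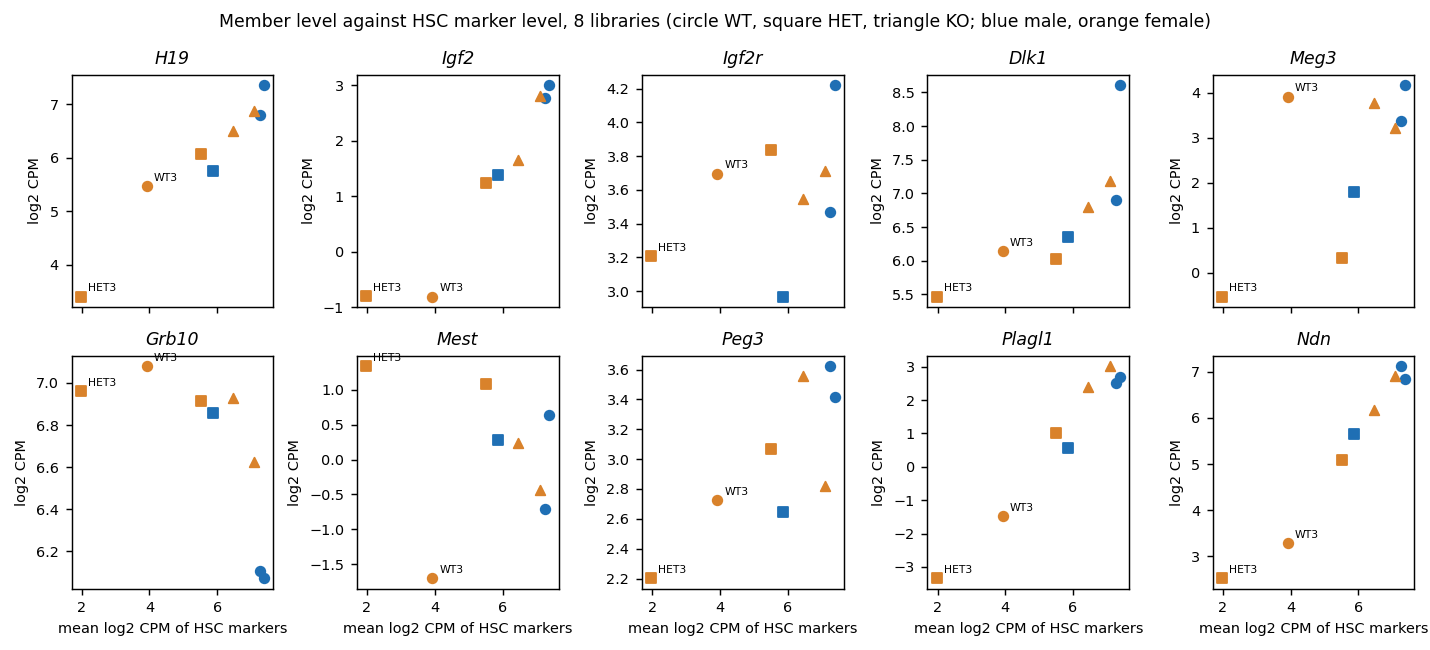
Log2 CPM of each member against the mean log2 CPM of the 14 HSC markers in the 8 libraries (circle WT, square HET, triangle KO; blue male, orange female). Ndn, Plagl1, H19 and Igf2 increase with the marker level, from 1.97 in HET3 to 7.38 in WT2, and Meg3 in WT3 lies off this line.

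The genes with the most similar pattern over the 8 samples, among 10099 with a mean of at least 5 CPM, were Tnfrsf13b, Tes and Acvr1b for Ndn (Pearson r 0.998 each), Cpne3, Cirbp and Oas1a for Igf2 (0.998, 0.996 and 0.996), and Rora, AI504432 and Gm4759 for H19 (0.993, 0.992 and 0.991). For Grb10 they were Tuba1c, Espl1 and Cenpf, which serve mitosis (0.982, 0.981 and 0.978), and for Meg3 Tmem30a, P2ry13 and Hfe (0.981, 0.960 and 0.951). Among members, Igf2 and Ndn (r = 0.98) and Plagl1 and Ndn (0.98) were closest. The points share the same libraries and are given as a description.

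Other genes of these pathways were taken from lists of known members. Of the 33 tested neighbours of the members in their clusters, 6 were higher and 3 lower in KO at an unadjusted p under 0.05 in edgeR, with 0 called and a median log2 fold change of 0.37 against 0.13 for all genes. Over all genes 15.7% were higher and 9.48% lower at that p, which is the background for each list in this fit. Without WT3 and HET3, 1 neighbour was higher and 1 lower, against 838 and 210 of all 20610 genes. Without the sex term as well it was 0 and 0, against 180 and 150 of all genes. Cdkn1c, a brake on the cell cycle read from the maternal copy, was at 80.5, 76.1 and 11.3 CPM in WT, 31.7, 25.4 and 6.53 CPM in HET, and 81.0 and 55.5 CPM in KO, with a log2 fold change of 2.24 (adjusted p = 0.148 by edgeR). Of other paternally read genes, 3 of 18 were higher and 1 lower, and of maternally read ones 5 of 21 higher and 3 lower. Sgce, read from the paternal copy, had a log2 fold change of 2.22 (unadjusted p = 0.00543, adjusted p = 0.148 by edgeR), and Atp10a, on the maternal list, one of 2.47 (unadjusted p = 0.0665, adjusted p = 0.222 by edgeR). In the fit that leaves out WT3 and HET3, Cdkn1c stood at 1.40, Sgce at 1.53 and Atp10a at 0.998, and without the sex term as well at 0.35, 0.32 and -0.34.

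In the insulin-like growth factor axis, 5 of 20 genes were higher and 3 lower in KO at an unadjusted p under 0.05, 0 called. Igfbp4, which binds IGFs, had a log2 fold change of 2.01 and Igf2bp2, which binds Igf2 mRNA, of 1.80 (both adjusted p = 0.148 by edgeR). Igf1r, the receptor that IGF2 signals through, was at 36.8 to 75.8 CPM with a log2 fold change of 0.56 (adjusted p = 0.199 by edgeR). Of 13 genes on the imprint maintenance list, 4 were higher and 0 lower. The 4 included the de novo DNA methyltransferases Dnmt3a (1.85) and Dnmt3b (1.53) and the factor Zfp57 (2.36), none with an adjusted p under 0.05. Trim28 and Ctcf, the 2 with the highest level on this list, stood at -0.26 and 0.02. The median of the list was 0.16 against 0.13 for all genes. Of 14 partners of H19 and Dlk1, 1 was higher and 2 lower. With both of WT3 and HET3 left out, 2 of 20 genes of the axis and 2 of 13 imprint maintenance genes were higher at that p. Over all genes it was 838 of 20610 in that fit. Igfbp4 then stood at 1.43, Igf2bp2 at 1.41, Dnmt3a at 1.43, Dnmt3b at 1.03 and Zfp57 at 1.79. Without the sex term as well, these 5 stood at 0.14, 0.29, 0.50, 0.33 and 0.07.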

How the data were processed

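The authors deposited a table of raw read counts per Ensembl gene for the 8 libraries. Per the labels and methods, reads were trimmed with Trim Galore 0.6.6, aligned with STAR 2.7.8 to GRCm38 and counted per gene; the strand setting is not given in the sources used here. A deposited table of normalized values was not used. Of 55487 identifiers, 55141 matched a symbol. The members and lists were chosen with earlier results of these data known. Counts were scaled by TMM and tested with edgeR 4.0.16 in R 4.3.3 (glmQLFit, legacy form, glmQLFTest), with sex and genotype as terms; SEs come from the F statistic. Gene names in the text follow a rule: the members, Nfkbia, sex genes, up to 3 genes per list by level and by change, and the 3 closest patterns per member; Rian, Igf1r and marker genes were added after their values were seen. Deviations from the group means of same-numbered WT and HET libraries correlated at 0.506, 0.376 and 0.718, and their replicate numbers were taken as pairs in the block fit. WT2 correlated more with HET1 (0.594), and pair 2 joins a male and a female library, so the pairing is not settled. DESeq2 1.42.0 with apeglm 1.24.0, the authors' test in another version, was an alternative. Log2 CPM used a prior count of 2. The test was also run on simulated counts with a single fixed dispersion for all genes. These held no difference in marker level between libraries, so the run does not show how the test does on libraries as unlike as these. Depth of 17895973 to 21720972 reads sets the counting precision. 1 further KO sample was left out by the authors.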

Additional observations from a re-analysis of the deposited data

Results flagged for a closer look

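Among the 6 WT and HET libraries, Dlk1 in WT2 stood far above the rest, at 390 CPM against 119.0 CPM in WT1, the next highest. The gap to the next value was 0.784 of the whole range, above the limit of 0.625 for 6 samples, which chance passes in about 1 of 20 groups. No other member had such a library, and groups of 3 were not examined.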

How the results depend on the processing

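With 2 KO libraries, whose deviations mirror each other, pairing with KO could not be judged. The replicate block left 0 members called in each comparison, and it left 0 members in KO, 4 in HET and 1 in sex at an unadjusted p under 0.05, and in KO it put Ndn at 1.41. In KO, 1 member was called by the DESeq2 Wald test, with no filter and by DESeq2 with apeglm. WT alone as the reference gave 2. With sex in the model, WT3 is the only female library of that reference. The calls and signs with WT alone thus in effect set KO against WT3, a library that stood apart. Over single libraries left out, 0 to 1 members were called, the 1 being Ndn without HET2 (3.65, edgeR adjusted p = 0.0400). The DESeq2 Wald test called 1825 genes in all, no filter 1106, WT alone 661. In HET, 1 member was called by the DESeq2 Wald test and with no filter, and 5 without WT3 and HET3, a fit that in effect compares HET1 with WT1 and WT2 on 1 residual degree of freedom; single libraries gave 0 to 1, the 1 being H19 without HET2 (-1.65, edgeR adjusted p = 0.0446). Over all genes HET had 64 calls by the DESeq2 Wald test, 131 with no filter, 135 without HET2 and 1964 without WT3 and HET3. In male against female, 3 members were called by the DESeq2 Wald test and 4 with no filter, and 0 to 3 over single libraries (Igf2, Dlk1 and Ndn without HET1, and Igf2, Plagl1 and Ndn without HET2). Over all genes sex had 2988 calls by the DESeq2 Wald test, 2255 with no filter, 3070 without HET1 and 1325 without HET2. Signs in KO turned for Igf2r (-0.0069 by the DESeq2 Wald test, -0.0066 by RLE, -0.24 without WT3 and HET3, -0.76 with HSC marker level, -0.0037 with apeglm, -0.0588 with WT alone, -0.0217 in females), Dlk1 (-0.0041 without the sex term), Meg3 (-0.38 with WT alone), Mest (2.02 with WT alone) and Grb10 (0.0713 by library size, 0.0633 without the sex term). Without WT3, HET3 and the sex term they turned for Igf2r (-0.0719), Dlk1 (-0.36), Grb10 (0.23) and Peg3 (-0.0048). With the HSC marker level they also turned for H19 (-0.69), Meg3 (-1.27), Grb10 (0.15), Peg3 (-0.21) and Plagl1 (-0.25), in HET for Igf2 (0.30), Plagl1 (0.27) and Ndn (0.21), and in male against female for H19 (-0.77), Igf2r (-0.80), Meg3 (-1.72), Peg3 (-0.23) and Plagl1 (-1.16); Igf2r was -0.22 without WT3 and HET3. These 3 settings were chosen after seeing the data, and the cause was not tested. Over single libraries left out, values ranged in KO from -0.15 to 0.17 for Igf2r, and in HET from -1.55 to 1.54 for Igf2, -2.40 to 1.87 for Plagl1, -1.33 to 1.03 for Ndn and -0.15 to 0.77 for Grb10, and in sex from -0.37 to 0.28 for Igf2r. Depth limits Mest, at 4 to 41 reads, and Plagl1, at 0 to 163.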
